A study of Mus musculus with 3 samples.

Results

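The genes described here are 10 imprinted genes of the mouse, *H19*, *Igf2*, *Igf2r*, *Peg3*, *Mest*, *Dlk1*, *Gnas*, *Grb10*, *Plagl1*, and *Nnat*, taken by symbol from a table of 30854 gene symbols. All 10 had a row of their own. The samples were 3 arrays, hybridized with total RNA of wild-type Cd-1 mouse embryos at the early headfold (EHF) stage, of which only the embryonic portion, cut away from the extraembryonic one, was extracted. The arrays, labelled replicates 1, 2, and 3, are the only group, with no treatment, mutant, or second stage, so every result is a level set against the background of its own array. The written sources do not settle whether an array holds a single embryo or a pool, nor the stock and the RNA reagent, which the article names as ICR and TRIzol and the labels as Cd-1 and a column kit. The p-values of the limma test below rest on the spread between these 3 samples, pooled over all symbols in the main fit. That spread may be technical, and the number of samples limits the precision of each level. The detection p-values, also explained below, compare a signal with the negative controls of its own array and measure no spread between samples.

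Imprinted genes are transcribed mainly from the copy inherited from a given parent. The choice is written as DNA methylation of a control region in the egg or the sperm and is kept through the wave of demethylation that follows fertilization by the zinc finger protein ZFP57, its partner TRIM28, and the maintenance methyltransferase DNMT1. Many of these genes set the growth of the embryo and the placenta. *Igf2* encodes a growth factor, *Igf2r* the receptor that carries it to the lysosome, and *Grb10* an adaptor that dampens insulin and IGF receptor signalling. An array probe reads the sum of both alleles, so the parental origin of the transcripts was not measured.

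Some of these transcripts are also hosts of microRNAs, whose mature forms are given from RefSeq (GRCm38.p6) with the seed, bases 2 to 8 from the 5′ end, in capitals. They are shown because the array rows for *H19*, *Igf2*, and *Mest* read the host transcripts and not these products. The precursor of miR-675 lies in *H19*, that of miR-483 in *Igf2*, and that of miR-335 in *Mest*.
mmu-miR-675-5p: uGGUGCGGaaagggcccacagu
mmu-miR-675-3p: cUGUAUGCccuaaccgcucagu
mmu-miR-483-5p: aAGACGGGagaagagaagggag
mmu-miR-483-3p: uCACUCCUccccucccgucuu
mmu-miR-335-5p: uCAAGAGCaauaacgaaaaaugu
mmu-miR-335-3p: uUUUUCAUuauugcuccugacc
No 2 of these 6 seeds are the same.

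A signal was taken as above background where its detection p, the share of negative-control probes at least as bright on that array, was under 0.01 on all 3 arrays. This held for 7 of the 10 imprinted genes, *H19*, *Igf2*, *Igf2r*, *Mest*, *Dlk1*, *Grb10*, and *Nnat*. Over all symbols it held for 6357 of 30854, or 20.6%. *Peg3* met the threshold on 2 arrays, and *Gnas* and *Plagl1* on none. Signals are on the log2 scale as deposited, not normalized between arrays, and the lowest signal that counted as detected for symbols with 1 probe was 6.69, 6.66, and 6.58 on replicates 1, 2, and 3. Probes differ in how strongly they hybridize, so no gene was ranked against another.

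**Figure D1:**
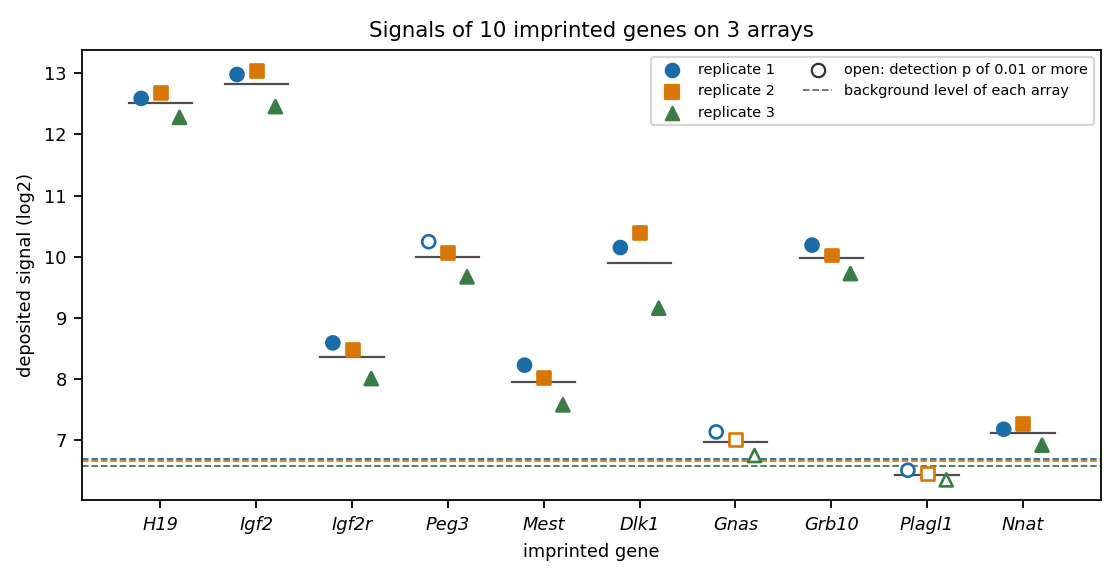
Deposited log2 signal (vertical axis) of the 10 imprinted genes (horizontal axis) on each of the 3 arrays. Horizontal bars are means over the arrays, and open symbols are values with a detection p of 0.01 or more. Dashed lines, labelled as background level, are the lowest detected signals of symbols with 1 probe, 6.69, 6.66, and 6.58. *Plagl1* lies under the lines on every array, *Gnas* lies above them with open symbols throughout, and *Peg3* is open on replicate 1 only.

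Levels were obtained by background correction and quantile normalization of the signals, and the background level of each array was subtracted. This background level is the lowest level that counted as detected for symbols with 1 probe, so undetected symbols can lie under it. A one-sided limma test of this difference, adjusted over 30854 symbols, called 7940 symbols, or 25.7%, and 9 of the 10 imprinted genes, all but *Plagl1*. The median level of the 10 genes was 4.04 above background on the log2 scale, and that of all symbols was -0.46. The fit gave every gene the same standard error, 0.15, so its adjusted p-values are very small. The largest adjusted p over the alternatives is given beside each level for that reason. The size of a level also depends on the processing. Without background correction the 9 genes were from 0.56 to 1.79 lower on the log2 scale. The largest falls were those of *Igf2*, from 7.963 to 6.175, and *H19*, from 7.645 to 5.86. As a ratio of log2 levels, which is not a fold change, the change was over 1.5 for the 7 others.

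The reciprocally imprinted neighbours *Igf2* and *H19* were both detected with a p of 0 on every array. *Igf2* is expressed from the paternal and *H19*, a long noncoding RNA, from the maternal chromosome, and they compete for enhancers downstream of *H19*. *Igf2*, read by 1 probe, had signals of 12.98, 13.04, and 12.45 on replicates 1, 2, and 3. *H19*, also read by 1 probe, had signals of 12.59, 12.68, and 12.28. Replicate 3 was the lowest for both, and every value was far above the background signal. After normalization *Igf2* was 7.96 above background (SD 0.21, n = 3) and *H19* was 7.64 above it (SD 0.13, n = 3). The largest adjusted p of limma over 10 alternatives was 0.0048 for *Igf2* and 0.00463 for *H19*. Normalized levels were 12.29, 12.60, and 12.60 for *H19* and 12.72, 12.93, and 12.79 for *Igf2*, with replicate 1 the lowest for both. *Ins2*, the paternally expressed insulin gene next to *Igf2*, had signals of 6.67, 6.53, and 6.37 and detection p-values of 0.016, 0.166, and 0.535, so it was not detected. The antisense transcript listed as *Igf2as*, looked up after the other values were seen, was not detected either, with signals of 6.45, 6.38, and 6.47.

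*Igf2r*, the maternally expressed receptor that removes IGF2, had signals of 8.59, 8.48, and 8.01 from 2 probes, with a detection p of 0 on each array. All 3 values were above the background signal, and the normalized level was 3.15 above background (SD 0.21, n = 3), with a largest adjusted p of 0.00854 over the alternatives. *Airn*, the paternal noncoding RNA that overlaps *Igf2r* and silences its paternal copy, is on the array under a clone name. Its signals of 6.47, 6.56, and 6.35 were not detected, with detection p-values of 0.732, 0.0844, and 0.643. The solute carriers *Slc22a2* and *Slc22a3* of the same cluster were not detected on any array.

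*Grb10* is expressed from the maternal allele in most tissues and from the paternal allele in neurons. Its signals were 10.19, 10.03, and 9.72 from 3 probes, with detection p-values of 1.63e-09, 0.00522, and 0.00129. The combined p of a symbol with several probes is a function of the sum of its probes' p-values, and inverting that function gave sums of 0.00214, 0.315, and 0.198 for *Grb10*. On replicate 1 each of its probes was therefore at 0.00214 or under, and on replicate 2 at least 1 probe had a p of 0.105 or more. The normalized level was 5.02 above background (SD 0.10, n = 3), with a largest adjusted p of 0.00469 over the alternatives. The neighbours *Ddc* and *Cobl* were not detected on all arrays. *Ddc*, which encodes a decarboxylase of amine synthesis, had signals of 7.82, 7.92, and 7.09 from 3 probes with detection p-values of 0.136, 0.138, and 0.115.

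Among the paternally expressed genes, *Dlk1* had the widest spread between arrays of the 10. It encodes a transmembrane protein related to the Notch ligands that restrains differentiation of several precursor cells. Its signals were 10.15, 10.40, and 9.16 from 2 probes, with a detection p of 0 on each array. Replicate 3 was 1.24 under replicate 2 and 0.99 under replicate 1 on the log2 scale, and the SD of 0.66 was above the median of 0.25 over all called symbols. After normalization the levels were 9.77, 10.25, and 9.35, an SD of 0.45 where the median over called symbols was 0.17. The level above background was nonetheless 4.94 (SD 0.59, n = 3), with single arrays at 5.08, 5.44, and 4.29 and a largest adjusted p of 0.0168 over the alternatives. The difference between arrays itself cannot be tested, because each array is a single sample.

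In the same cluster the maternal noncoding RNA *Meg3* has 2 rows that did not go together. The row *Meg3*, from 3 probes, had signals of 6.65, 6.53, and 6.39 with detection p-values of 0.0103, 0.0284, and 0.41, and was not called on any array. The row *Gtl2*, an older symbol of the same gene, had signals of 8.09, 7.88, and 7.41 from 2 probes, with detection p-values of 1.43e-05, 5.71e-07, and 0.000185. The rows hold different probes, and the counts use the row under the current symbol. *Rtl1* was not detected, and *Dio3*, a deiodinase gene at the end of the cluster, was called on all arrays at signals of 6.83, 6.69, and 6.74, close to background.

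*Mest*, a paternally expressed gene of the mesoderm that encodes a predicted hydrolase, had signals of 8.23, 8.03, and 7.58 from 3 probes, with a detection p of 0 on each array. The normalized level was 2.59 above background (SD 0.28, n = 3), with a largest adjusted p of 0.015 over the alternatives. Each array exceeded its background. *Copg2*, which overlaps *Mest*, had signals of 6.75, 6.70, and 6.49 with detection p-values of 0.221, 0.0497, and 0.0507 and was not detected, nor was *Klf14*.

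*Peg3*, which encodes a large zinc finger protein, gave a bright signal without a call on all arrays. Its signals were 10.25, 10.06, and 9.67, and its detection p-values 0.055, 2.54e-05, and 0.006. It was thus missed on replicate 1, where its signal was the highest. The sums of its 3 probes' p-values were 0.691, 0.0534, and 0.33. On replicate 2 each probe was at 0.0534 or under, whereas on replicate 1 at least 1 probe had a p of 0.23 or more. The mean signal does not show which probe that was. The normalized level was 5.04 above background (SD 0.16, n = 3), with a largest adjusted p of 0.00506 over the alternatives, so the limma test and the detection rule differed for this gene. Of 153 symbols with 3 probes and a level of at least 4 above background, a limit chosen after the values were seen, 104 were called on all arrays, or 68%. The neighbours *Usp29* and *Zim1* were not detected, and a further row under an older symbol of *Peg3* was not detected either.

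*Nnat* encodes a small membrane proteolipid of the nervous system and lies inside an intron of *Blcap*. Its signals were 7.18, 7.27, and 6.92 from 4 probes, with detection p-values of 0.00341, 0.000787, and 0.00208. For 4 probes the smallest value that the combined p can take is 0.000266. The normalized level was 1.22 above background (SD 0.23, n = 3), with a largest adjusted p of 0.0323 over the alternatives. *Nnat* was called under every alternative of this test. A detection p under 0.001 on all arrays held for 5 of the 10 genes and for 17% of all symbols. Both *Nnat* and *Grb10* were lost at that threshold. Its host *Blcap* had signals of 8.67, 8.47, and 8.40 from 1 probe, each with a detection p of 0.

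*Gnas* and *Plagl1* were not detected by the threshold. *Gnas* encodes the stimulatory G protein subunit and several alternative products, among them transcripts of the maternal, the paternal, or both alleles. It was read by 8 probes, with signals of 7.14, 7.02, and 6.75 and detection p-values of 0.01, 0.0162, and 0.0397. The value of replicate 1 lay just above 0.01 before rounding, and at a threshold of 0.05, which called 8 of the 10 genes and 24.7% of all symbols, *Gnas* was called on all arrays. The sums of its probes' p-values were 2.10, 2.25, and 2.57, so at least 1 probe had a p of 0.263, 0.282, and 0.321 or more on the respective arrays. Of 9 symbols with 8 probes, 0 were called on all arrays. The level was 0.88 above background (SD 0.24, n = 3), with an adjusted p of 1.36e-08 that became 0.0603 with an unmoderated standard error. *Nespas*, the paternal antisense RNA of the cluster, had signals of 6.76, 6.44, and 6.73 with detection p-values of 0.00214, 0.605, and 0, so replicate 2 went against the others.

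*Plagl1* encodes a zinc finger factor that restrains proliferation. It was the only one of the 10 genes under the lowest detected level on every array. Its signals were 6.51, 6.46, and 6.35 from 3 probes, with detection p-values of 0.543, 0.53, and 0.794. Relative to the lowest detected level, *Plagl1* was at -0.57 (SD 0.21, n = 3), close to the median of all symbols. With the background level taken from detection p 0.4 to 0.6 instead, it was at -0.01, so its signal was at background. A row under an older symbol of the gene was not detected either. A signal at background was not detectable with these probes and does not show that the transcript was absent.

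As deposited, replicate 3 had the lowest signal for 10 of the 10 imprinted genes, where 93.4% of the called symbols did the same. After normalization replicate 3 was lowest for 2 of the 7 detected genes, and for 34% of called symbols. Among the 7 detected genes replicate 2 was highest for 5, *H19* included with replicate 3 at the same rounded level, and it was highest for 29.4% of called symbols. The largest departures were those of *Dlk1*, 0.69 above the mean of the other arrays on replicate 2 and -0.66 relative to it on replicate 3, and of *Nnat*, 0.32 on replicate 2 and -0.37 on replicate 1. *Dlk1*, *H19*, and *Nnat* had an SD above the median of the called symbols, and the other 7 did not.

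Markers of visceral endoderm moved between the arrays too. This epithelium covers the embryonic and the extraembryonic portion, and over the embryo it is dispersed as gut endoderm forms. In the article's in situ hybridization at headfold stages, the marker *Apoc2* was seen only in the extraembryonic part of it. Which cells gave the marker signals on these arrays was not tested. Of 14 such markers, 13 were detected on all arrays, beside 20.6% of all symbols, and *Afp* missed on replicate 3 only. The median of these 13 was 0.55 above the mean of the other arrays on replicate 2, -0.11 on replicate 1, and -0.24 on replicate 3. Their summed linear level was 11700, 14300, and 8950 on replicates 1, 2, and 3. This is the order of arrays seen for *Dlk1*, but 6 of the 13 markers followed it singly, *Amn*, *Apob*, *Apoe*, *Cubn*, *Rbp4*, and *Ttr*, while 5 were lowest on replicate 1. The order was taken on normalized levels. *Spink3*, with normalized levels of 11.819, 11.802, and 10.631, and *Apoa1*, with 11.155, 11.675, and 11.325, were among the other 7. The share of all called symbols in the order of *Dlk1* was not computed. Counts of markers in that order therefore show neither a likeness to *Dlk1* nor its absence. Markers of the embryonic region, such as *T*, *Otx2*, *Hoxb1*, *Pou5f1*, *Meox1*, and *Tbx6*, were detected for 11 of 13, with a median of -0.20 on replicate 2, and *Six3* and *Hesx1* were not detected on all arrays. The summed linear level of the 11 detected markers of the embryonic region was 3190, 2670, and 2930 on replicates 1, 2, and 3, in another order. Of 13 genes listed as extraembryonic ectoderm markers 5 were detected, *Cdx2*, *Rhox5*, *Ets2*, *Bmp4*, and *Tfap2c*. Their mean signals were 9.53, 9.39, 8.66, 8.13, and 7.68 in that order. These arrays do not show in which tissue of the embryonic portion the 5 genes were expressed. The summed linear level of the 5 was 2050, 2230, and 1620 on replicates 1, 2, and 3, in the order seen for *Dlk1*. Their medians relative to the other arrays were 0.10, 0.09, and -0.11, which did not place replicate 2 above replicate 1. Only *Rhox5* (normalized levels of 9.38, 9.72, and 8.51) and *Tfap2c* followed the order of *Dlk1* singly. *Hand1* was called on 2 arrays and *Esrrb* on 1, and *Elf5*, *Eomes*, *Gcm1*, *Tpbpa*, and the other 2 were at background. Of 10 blood and allantois markers *Tal1* alone was detected on all arrays, and the embryonic globins *Hbb-bh1*, *Hba-x*, and *Hbb-y* were at background. The part of these cell types in the level of *Dlk1* was not tested, and more cells of a type cannot be told apart from more RNA per cell in such samples.

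**Figure D2:**
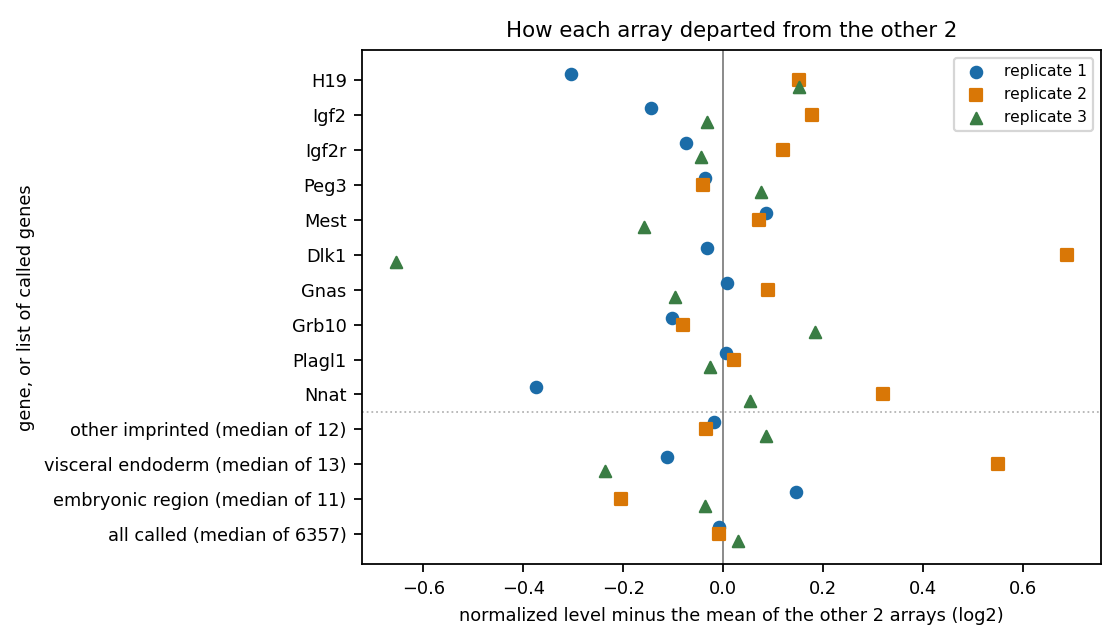
Normalized log2 level on each array minus the mean of the other 2 arrays (horizontal axis), for each of the 10 imprinted genes and as the median over called genes of 4 lists (vertical axis). *Dlk1* spreads from -0.66 on replicate 3 to 0.69 on replicate 2, the visceral endoderm median reaches 0.55 on replicate 2, and the median over all 6357 called symbols lies near 0 on every array.

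A longer list of imprinted genes was read to set the 10 in context. Of 55 further genes 52 had a row, and 12 of these, or 23.1%, were detected on all arrays beside the background of 20.6%. The limma test called 17. The median level of the 52 was -0.36, near that of all symbols. In the *Kcnq1* cluster on the same chromosome as *Igf2*, the maternally expressed growth inhibitors *Cdkn1c* and *Phlda2* were detected. *Cdkn1c*, a cyclin-dependent kinase inhibitor, had signals of 11.69, 11.64, and 11.42, and *Phlda2*, which limits placental growth, had a mean of 11.84 (SD 0.24, n = 3). *Kcnq1ot1*, the paternal noncoding RNA of that cluster, is listed as *Tssc8* and had signals of 7.53, 7.19, and 6.89. *Cd81*, which encodes a tetraspanin, had 10.87, 10.98, and 9.93 and *Tssc4* had 6.88, 6.80, and 6.62, whereas *Ascl2* and *Kcnq1* were not detected. The other genes detected on all arrays were *Commd1*, *Ndn*, *Blcap*, *Ppp1r9a*, *Mkrn3*, *H13*, and *Dio3*.

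The genes were also counted, with the 10, by the allele listed for each. Of 30 genes listed as maternally expressed 9 were detected on all arrays, and of 29 listed as paternally expressed 8 were. Imprinting was not measured, so the listed allele need not be the only one expressed in these samples. *Gnas*, *Grb10*, and *Blcap*, whose allele depends on the isoform or tissue, are counted apart, with 2 of 3 detected. The maternal and paternal counts, 30% and 27.6%, stand beside 20.6% of all symbols and were not compared by a test. *Snrpn* had no row of its own, but *Snurf*, which shares its transcript, had signals of 11.07, 10.90, and 10.02 with a detection p of 0 on every array, and it was looked up after the other values were seen. *Ndn*, of the same cluster, had signals of 9.46, 9.15, and 8.69.

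**Figure D3:**
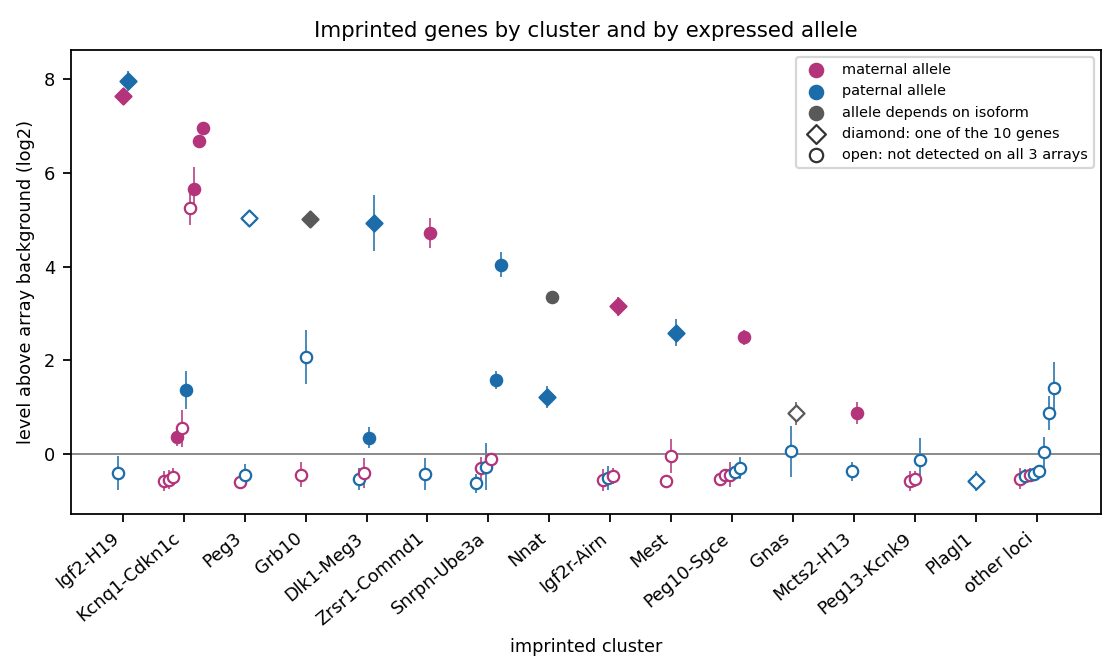
Level above the background of the array (log2, mean of 3 arrays, bars are the SD) for the 10 imprinted genes (diamonds) and 52 others (circles), grouped by imprinted cluster on the horizontal axis. Filled symbols mark genes detected on all 3 arrays, 7 of the 10 and 12 of the 52. Levels of different genes rest on different probes, and a height can be read only against the line at 0.

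The other genes of the IGF axis were detected in part. Of 20 listed genes 19 had a row and 9 of these, or 47.4%, were called on all arrays, beside 20.6% of all symbols. The receptor *Igf1r*, through which IGF2 signals, had signals of 8.53, 8.26, and 8.16. The ligand *Igf1* was not detected, nor were the adaptor *Irs1* and the binding protein *Igfbp1*. *Irs2*, the adaptor of the receptor, had signals of 8.16, 7.86, and 7.96, all above background. Of the binding proteins that hold IGFs outside the cell, *Igfbp2*, *Igfbp4*, and *Igfbp5* were detected. *Igfbp4* had 9.93, 10.04, and 9.77, and *Igfbp5* had 9.67, 9.66, and 9.51. The RNA-binding proteins that bind *Igf2* transcripts, *Igf2bp1*, *Igf2bp2*, and *Igf2bp3*, were all detected, with *Igf2bp2* at 11.62, 11.50, and 11.04. *Grb7*, an adaptor of the same family as *Grb10*, had 10.18, 9.85, and 9.84 and was detected, and *Grb14* was not. The row *Insr*, for the insulin receptor, was not detected, although a row under an older symbol of the gene had signals of 7.79, 7.60, and 7.43 with a detection p of 0 throughout.

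Promoter sequences of RefSeq (GRCm38.p6, 250 bases before to 50 after each start) matched 9 of the 10 genes, with 18 starts, and *H19* was not matched. Their CpG content is given because methylation of CpG dinucleotides carries the imprint. It does so at control regions, which these windows were not chosen to cover. All 9 genes had at least 1 start with more CpG dinucleotides than the median of 7 over 32851 promoters. A gene with several starts meets that rule more easily, and the share of all genes that meet it was not computed. Of the 18 starts, 16 were above the median of all promoters, and the median of the 18 was 17. The starts of *Igf2* held from 2 to 24. One start of *Grb10* held 45, more than in 98.1% of promoters. *Plagl1*, not detected here, held 26, and *Dlk1* held 9. The hexamer TGCCGC that ZFP57 binds when methylated, searched on both strands, occurred in 6 of the 18 starts, of *Nnat*, *Mest*, *Igf2*, *Plagl1*, and *Grb10*, and in 11.6% of all promoters. The 18 starts include 2 pairs whose windows overlap, of *Mest* and of *Gnas*, and with these merged the hexamer occurred in 5 of 16. The hexamer itself holds a CpG, and its share was not set against promoters of like CpG content. Methylation and binding were not measured, and a match is only a match of letters. The windows of *Dlk1* and *Nnat*, which had the highest SDs of the normalized level among the 10 genes, and of *Plagl1*, which was not detected, are printed with each CpG in capitals. They lie at chr12:109452573-109452872 on the plus strand, chr2:157559828-157560127 on the plus strand, and chr10:13090582-13090881 on the plus strand.
Dlk1: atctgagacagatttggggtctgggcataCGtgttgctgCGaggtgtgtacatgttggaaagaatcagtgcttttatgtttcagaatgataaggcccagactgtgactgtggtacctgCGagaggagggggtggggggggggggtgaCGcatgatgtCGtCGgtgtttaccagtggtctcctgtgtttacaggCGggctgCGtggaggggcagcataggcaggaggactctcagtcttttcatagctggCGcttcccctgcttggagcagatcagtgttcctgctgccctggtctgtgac
Nnat: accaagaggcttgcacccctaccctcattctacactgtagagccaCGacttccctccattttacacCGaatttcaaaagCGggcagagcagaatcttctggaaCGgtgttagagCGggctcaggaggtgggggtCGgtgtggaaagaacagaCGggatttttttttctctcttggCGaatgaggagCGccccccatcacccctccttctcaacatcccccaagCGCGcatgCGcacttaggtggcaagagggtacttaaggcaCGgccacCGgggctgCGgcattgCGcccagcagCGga
Plagl1: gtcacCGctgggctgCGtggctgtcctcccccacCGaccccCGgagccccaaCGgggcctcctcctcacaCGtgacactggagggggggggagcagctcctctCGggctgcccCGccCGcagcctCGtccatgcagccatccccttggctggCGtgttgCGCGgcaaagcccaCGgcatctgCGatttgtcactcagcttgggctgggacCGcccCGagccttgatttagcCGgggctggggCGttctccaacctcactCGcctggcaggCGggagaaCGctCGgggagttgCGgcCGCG
These windows hold 9, 17, and 26 CpG dinucleotides in that order.

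**Figure D4:**
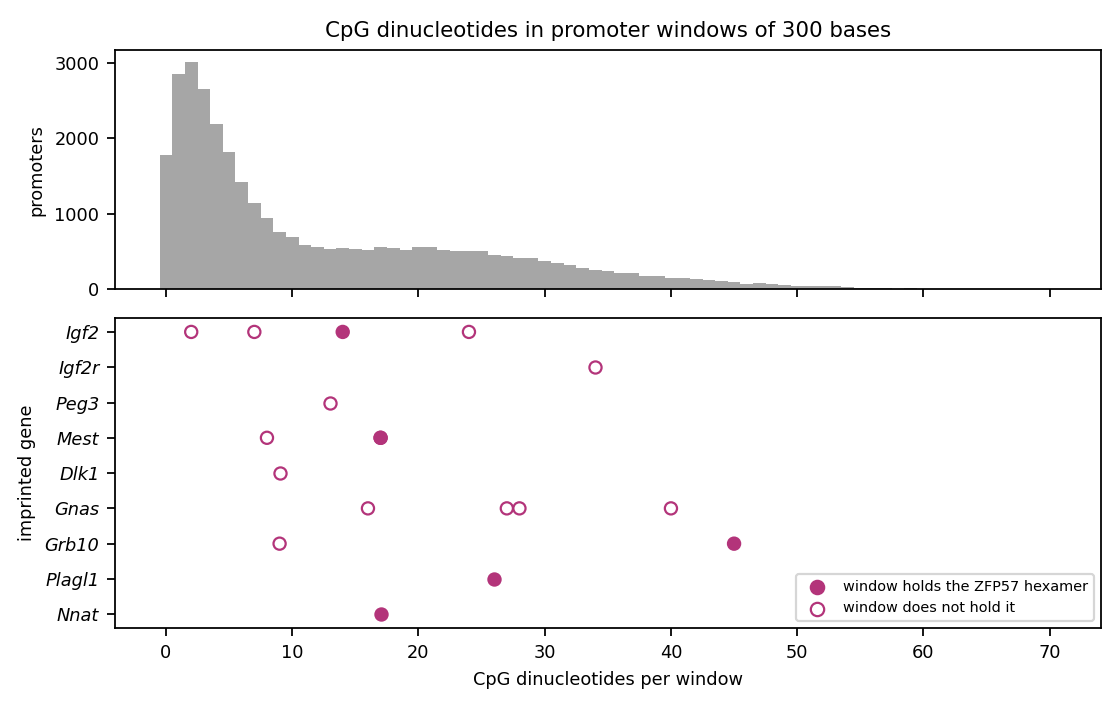
Number of CpG dinucleotides in promoter windows of 300 bases (horizontal axis), as a count of promoters over all 32851 (upper panel, vertical axis) and for each start of 9 imprinted genes (lower panel, a symbol a start). Filled symbols hold the ZFP57 hexamer on either strand, as 6 of the 18 starts did, and most starts lie to the right of the median of 7.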

How the data were processed

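Total RNA of 3 samples was measured on Illumina Mouse-6 arrays. The authors deposited per symbol a log2 signal, not normalized between arrays, the mean bead number, the bead standard error on the linear intensity scale, and a detection p-value. Partek is named for the authors' analysis, with the normalization and genome build not given in the sources used here. Probe numbers were inferred as the smallest that made mean bead numbers whole (tolerance 0.002) and placed detection p-values on steps of 1 in 936, which held for 99.1% of symbols. Sums of probe p-values follow from that. Signals were background-corrected with normexp (offset 16), quantile normalized, and set to log2. The lowest level among 1-probe symbols with a detection p above 0 and under 0.01 was the background (4.68, 4.81, and 5.06 on replicates 1, 2, and 3). The difference was tested with limma 3.58.1 (R 4.3.3, lmFit, eBayes, one-sided, Benjamini-Hochberg, threshold 0.05) after the script was tested on simulated data. Named beside the 10 genes were detected genes of each list, at most 12 of the imprinted list and 6 of the others by mean signal, cluster neighbours, and genes at background. Further genes of the IGF, regulator, and marker lists were named after their values were seen. The members and lists were chosen with earlier results of these data known. Older symbols were matched through the RefSeq gene table of GRCm38.p6. Alternatives were other detection thresholds, fewer arrays, other normalizations, offsets and backgrounds, and leaving out each replicate. Python 3.11.15 was used.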

Additional observations from a re-analysis of the deposited data

How the results depend on the processing

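The count of the 10 imprinted genes above background was 7, and from 5 (detection p under 0.001) to 9 (limma test) over 8 alternatives, with 7 to 8 when a replicate was left out. Leaving out replicate 1 added *Peg3*. The count past the limma test was 9 in 9 of 10 alternatives and 8 with an unmoderated standard error, which lost *Gnas* (adjusted p 0.0603), and 9 each time without a replicate. Median scaling and no normalization gave the same values, since the background of each array is subtracted. Of 99 levels recomputed, 98 kept their direction and side of the threshold, but their size moved. Without background correction the levels fell to 5.86 for *H19*, 6.175 for *Igf2*, 1.71 for *Igf2r*, 3.34 for *Peg3*, and 1.29 for *Mest*. They fell to 3.25 for *Dlk1*, 0.31 for *Gnas*, 3.33 for *Grb10*, and 0.47 for *Nnat*. An offset of 50 lowered the 9 genes above background by 0.41 to 1.12 on the log2 scale. The ratio of log2 levels, which is not a fold change, passed 1.5 for 3 of them, *Mest*, *Gnas*, and *Nnat*. The background level from detection p 0.4 to 0.6 raised each level by 0.56, which brought *Gnas* to 1.44. *Plagl1* was not tested in the fit limited to symbols with a detection p under 0.05 on at least 1 array. Counts ranged from 9 to 18 for the other imprinted genes (12), 8 to 13 for the IGF axis (9), 7 to 11 for the imprint regulators (8), and 26 to 36 for all marker lists (30). The blood and allantois count rose from 1 to 3 with detection on at least 1 array. *Utf1* and *Cer1*, detected on all arrays, did not pass the limma test. No paired analysis was possible because the arrays form 1 group. What can be called near background, as for *Gnas* and *Nnat*, is limited by the signal of each array.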

Other observations

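Genes that set or keep imprints were read as a further list of 14. Of these 8, or 57.1%, were detected on all arrays, beside 20.6% of all symbols. The limma test called 11 of them, beside 25.7% of all symbols. *Trim28*, the corepressor that ZFP57 recruits, had a mean signal of 12.27 (SD 0.27, n = 3). *Zfp57* itself was detected close to background, at 6.99, 6.88, and 6.62 on replicates 1, 2, and 3. The maintenance methyltransferase *Dnmt1* had signals of 8.87, 8.41, and 8.50, and *Dnmt3b*, which methylates the genome after implantation, had 12.33, 11.76, and 11.30. *Dnmt3l*, *Ctcf*, *Setdb1*, and *Mbd3* were also detected. *Uhrf1*, which brings DNMT1 to replicated DNA, was bright but not called, with signals of 10.54, 10.22, and 9.46 and detection p-values of 0.374, 0.0644, and 0.00678 from 2 probes. *Dnmt3a*, *Dppa3*, and *Ctcfl* were not detected on any array.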
